A study of Mus musculus with 12 samples.

Results

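This account follows 51 genes of mitosis and the spindle in RNA-seq of mouse bone marrow-derived macrophages (BMMs), which are macrophages grown in culture from marrow cells. The 51 symbols were given as a fixed list of mitotic cyclins and kinases, spindle checkpoint, kinesin, kinetochore and cytokinesis genes, and the rule used their names and no threshold on a measured value. They are 51 of 16516 gene symbols in the deposited tables, and all 51 occur in each of the 4 tables of normalised counts. The study crossed genotype with treatment. The KO BMMs are labelled MGMT KO, a knockout of the DNA repair methyltransferase that removes alkyl groups from guanine, and the WT BMMs are labelled wild type with fl/fl alleles. Each genotype received DMXAA, a compound that activates mouse STING, or its vehicle DMSO for 24 h, with 3 libraries in each of the 4 groups. The labels name no Cre, promoter or deleted exon for the knockout, and nothing says that libraries of a group came from separate mice, so p-values measure only the spread between these samples.

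Libraries held 79.5 to 98.1 M reads in listed genes, and levels are given as reads per 1000000 such reads (RPM). Mgmt had 51, 61 and 33 reads in DMXAA-treated KO BMMs, against 107, 85 and 99 reads in DMXAA-treated WT BMMs. With DMSO it had 121, 141 and 162 reads in KO BMMs and 263, 245 and 243 reads in WT BMMs. Mgmt was thus lower in KO by both comparisons but not absent, at log2 differences of -1.11 ± 0.247 under DMXAA and -0.83 ± 0.166 under DMSO (± SE; limma adjusted p = 0.00905 and 0.00566). Macrophage markers were abundant throughout, with all 8 of the listed genes detected and a summed level of 9396 to 21044 RPM.

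A cell enters mitosis when cyclin B binds and activates the kinase Cdk1. Aurora and Polo kinases then build the spindle, kinesins move microtubules and chromosomes along it, and kinetochores tie each chromosome to it. The spindle checkpoint holds back the anaphase-promoting complex until all chromosomes are attached, after which cytokinesis parts the daughter cells. Transcripts of these genes are made mainly in G2 and mitosis, under Foxm1, B-Myb and the MuvB complex, and are low in cells that have left the cycle. Macrophages grown with colony-stimulating factor keep dividing in culture for some days, and in such bulk samples fewer dividing cells and less RNA per cell cannot be told apart.

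The members formed 1 broad picture. In RPM, their mean level was lowest in DMXAA-treated KO BMMs, next in DMXAA-treated WT BMMs, then in DMSO-treated KO BMMs, and highest in DMSO-treated WT BMMs, for 38 of the 51. Another 9, among them Bub1b, Aurka and Espl1, had DMSO-treated KO below DMXAA-treated WT instead. RPM sets libraries to equal totals, a scale on which the median of all tested genes changed with DMXAA by -0.39 in KO and -0.32 in WT. The order of DMXAA-treated WT and DMSO-treated KO BMMs can thus depend on the scale, and it was not examined on another. The share of all genes with this order was not computed. Cyclin B1 (Ccnb1), for example, averaged 0.584 RPM in DMXAA-treated KO and 2.58 in DMSO-treated KO BMMs. In WT BMMs it averaged 1.52 RPM with DMXAA and 5.81 with DMSO. Summed over all members except Tpx2, the level was 165 to 176 RPM in DMXAA-treated KO libraries and 364 to 414 in DMSO-treated KO libraries. The same sum was 227 to 236 in DMXAA-treated WT libraries and 569 to 628 in DMSO-treated WT libraries, with no overlap between any pair of groups. Tpx2 is left out of that sum because it went the other way: it made up 56.3% to 56.5% of all member reads in DMXAA-treated KO libraries, against 4.66% to 5.19% in DMSO-treated KO libraries. In WT its share was 55.1% to 57.1% with DMXAA and 6.73% to 7.02% with DMSO.

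**Figure D1:**
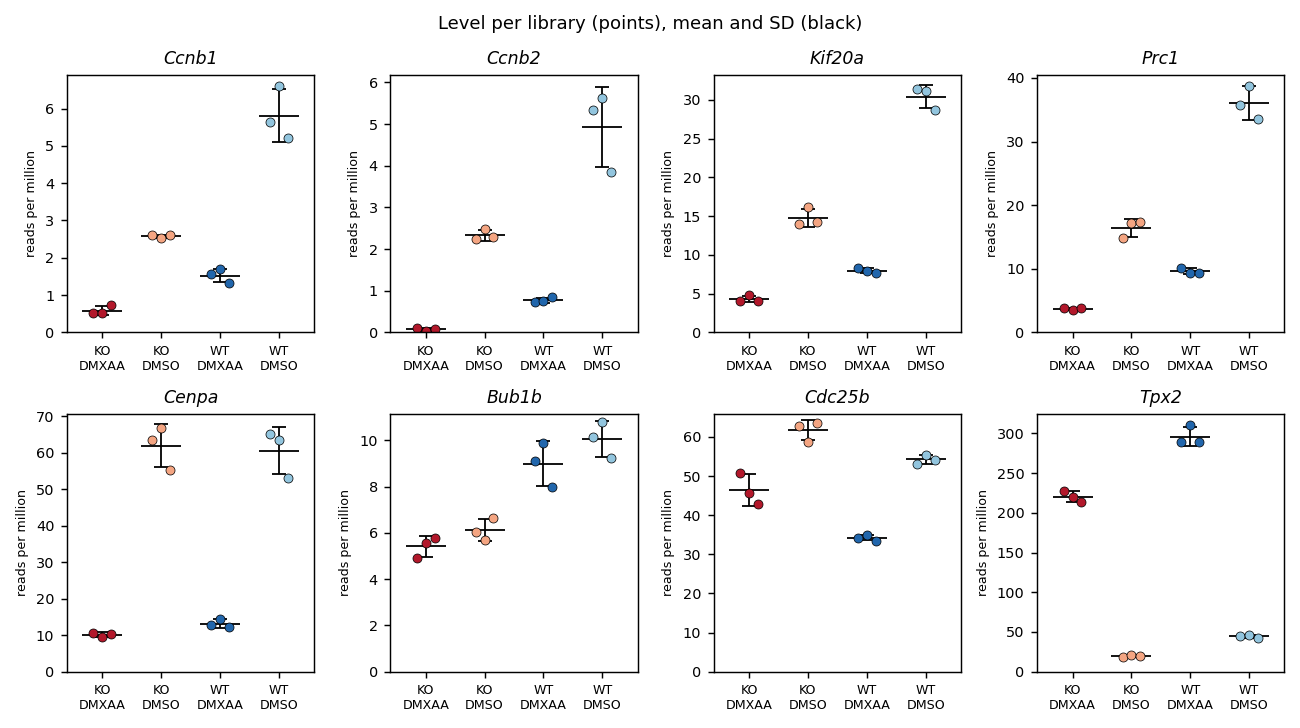
RPM (reads per 1000000 reads) in each library for 8 members, with points for the 3 libraries of each group and black bars for the mean and SD, in the order KO DMXAA, KO DMSO, WT DMXAA, WT DMSO. Ccnb1, Ccnb2, Kif20a and Prc1 are lowest in DMXAA-treated KO libraries and highest in DMSO-treated WT libraries, whereas Tpx2 is high in both DMXAA groups and Bub1b hardly moves with DMXAA in either genotype.

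Promoters of the members are shown as background on genes of this kind, not as an account of their changes here. RefSeq promoter sequences of the mm10 assembly (250 bases before to 50 after the transcript start) matched 42 of the 51 members. Promoters of late cell cycle genes are known for the cell cycle genes homology region (CHR), read by the MuvB complex, and for CCAAT boxes bound by NF-Y. The 100 bases before the start of 7 members follow, 5′ to 3′ on the gene's strand: Cdk1, Ube2c, Prc1, Cdc20, Iqgap3 and Top2a, which fell with DMXAA, and Mad2l1, which fell less. Capitals mark CHR letters (TTTGAA or TTCGAA, on either strand, so that TTCAAA is the other strand's TTTGAA) and CCAAT boxes (CCAAT, or ATTGG for the other strand). The coordinates in mm10 are chr10:69352913-69353012 (minus strand) for Cdk1, chr2:164769829-164769928 (plus) for Ube2c and chr7:80294376-80294475 (plus) for Prc1. Those of Cdc20 are chr4:118437344-118437443 (minus), those of Iqgap3 chr3:88081951-88082050 (plus), those of Top2a chr11:99024190-99024289 (minus) and those of Mad2l1 chr6:66535121-66535220 (plus). The GENCODE start of Mad2l1 is further downstream, at chr6:66535390, so its stretch and window depend on the RefSeq start.
Cdk1: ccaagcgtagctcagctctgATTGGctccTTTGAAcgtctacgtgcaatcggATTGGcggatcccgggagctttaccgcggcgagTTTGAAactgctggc
Ube2c: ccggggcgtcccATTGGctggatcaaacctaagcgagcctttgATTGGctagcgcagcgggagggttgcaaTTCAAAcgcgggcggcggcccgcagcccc
Prc1: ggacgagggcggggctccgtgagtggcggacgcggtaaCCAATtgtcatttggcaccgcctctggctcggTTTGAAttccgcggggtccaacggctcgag
Cdc20: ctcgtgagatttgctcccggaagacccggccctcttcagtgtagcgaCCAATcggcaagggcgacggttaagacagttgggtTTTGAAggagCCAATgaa
Iqgap3: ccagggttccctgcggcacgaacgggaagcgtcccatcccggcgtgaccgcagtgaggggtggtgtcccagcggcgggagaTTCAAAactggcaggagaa
Top2a: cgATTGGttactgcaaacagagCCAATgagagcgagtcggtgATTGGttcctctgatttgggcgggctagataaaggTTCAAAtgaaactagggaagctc
Mad2l1: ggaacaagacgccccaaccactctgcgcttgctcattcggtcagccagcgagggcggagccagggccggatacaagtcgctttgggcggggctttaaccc

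Within the whole 300-base window, CHR letters stood in 34 of the 42 members (81.0%), against 16.8% of 10300 tested genes with a promoter in the table and 5 of 25 DNA replication and S phase genes (20%). A CCAAT box stood in 31 members (73.8%), against 43.6% of tested genes and 17 of 25 S phase genes (68.0%), and both motifs in 28 members (66.7%), against 7.12% of tested genes and 5 of 25 S phase genes. The CHR letters lay between 40 bases before and 50 bases after the start in 31 members (73.8%), against 3.98% of tested genes; this narrower window was set after the positions had been seen. The E2F letters TTTCCCGC or TTTGGCGC were in 1 member (2.38%), 36.0% of the S phase genes and 3.46% of tested genes. These are matches of letters, on both strands, in 1 window per transcript start, and none shows that a factor was bound. Cdc25b and Bub1b, which did not follow most members, also held CHR and CCAAT letters in their windows. So did Kif11 and Espl1, which were not called with DMXAA in KO, and Kif15, not called there either, held CHR letters. Ccnb1 and Nek2, which fell in both genotypes, held CCAAT but no CHR letters. The promoters printed above are examples, and those of Ccnb1, Nek2, Bub1b and Cdc25b are not among them. Whether the letters go with the size of the response was not tested.

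Most members fell with DMXAA in both genotypes. Tested with limma across all genes of a table, 40 of 51 members fell and 1 rose in KO, with 10 not called, and 49 of 51 fell and 1 rose in WT, with 1 not called. Called means an adjusted p below 0.05 (Benjamini-Hochberg, over the whole table). This treatment moved much of the transcriptome: 66.6% of 12704 tested genes were called in KO, 32.9% lower and 33.7% higher, and 62.8% of 12752 in WT, 31.1% lower and 31.7% higher. The members stand out more by size than by being called. The median log2 change of the members was -1.44 in KO and -1.39 in WT, where that of all tested genes was 0.00 in both. Called falls of at least 1 on the log2 scale were seen in 34 members in KO and 36 in WT, against 11.1% and 10.4% of all tested genes. All 3 DMXAA libraries lay below all 3 DMSO libraries for 41 members in KO and 48 in WT, against 35.2% and 34% of tested genes. Each genotype was compared within its own libraries, and 40 members were called lower in both. The share of all tested genes called lower in both genotypes was not computed.

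**Figure D2:**
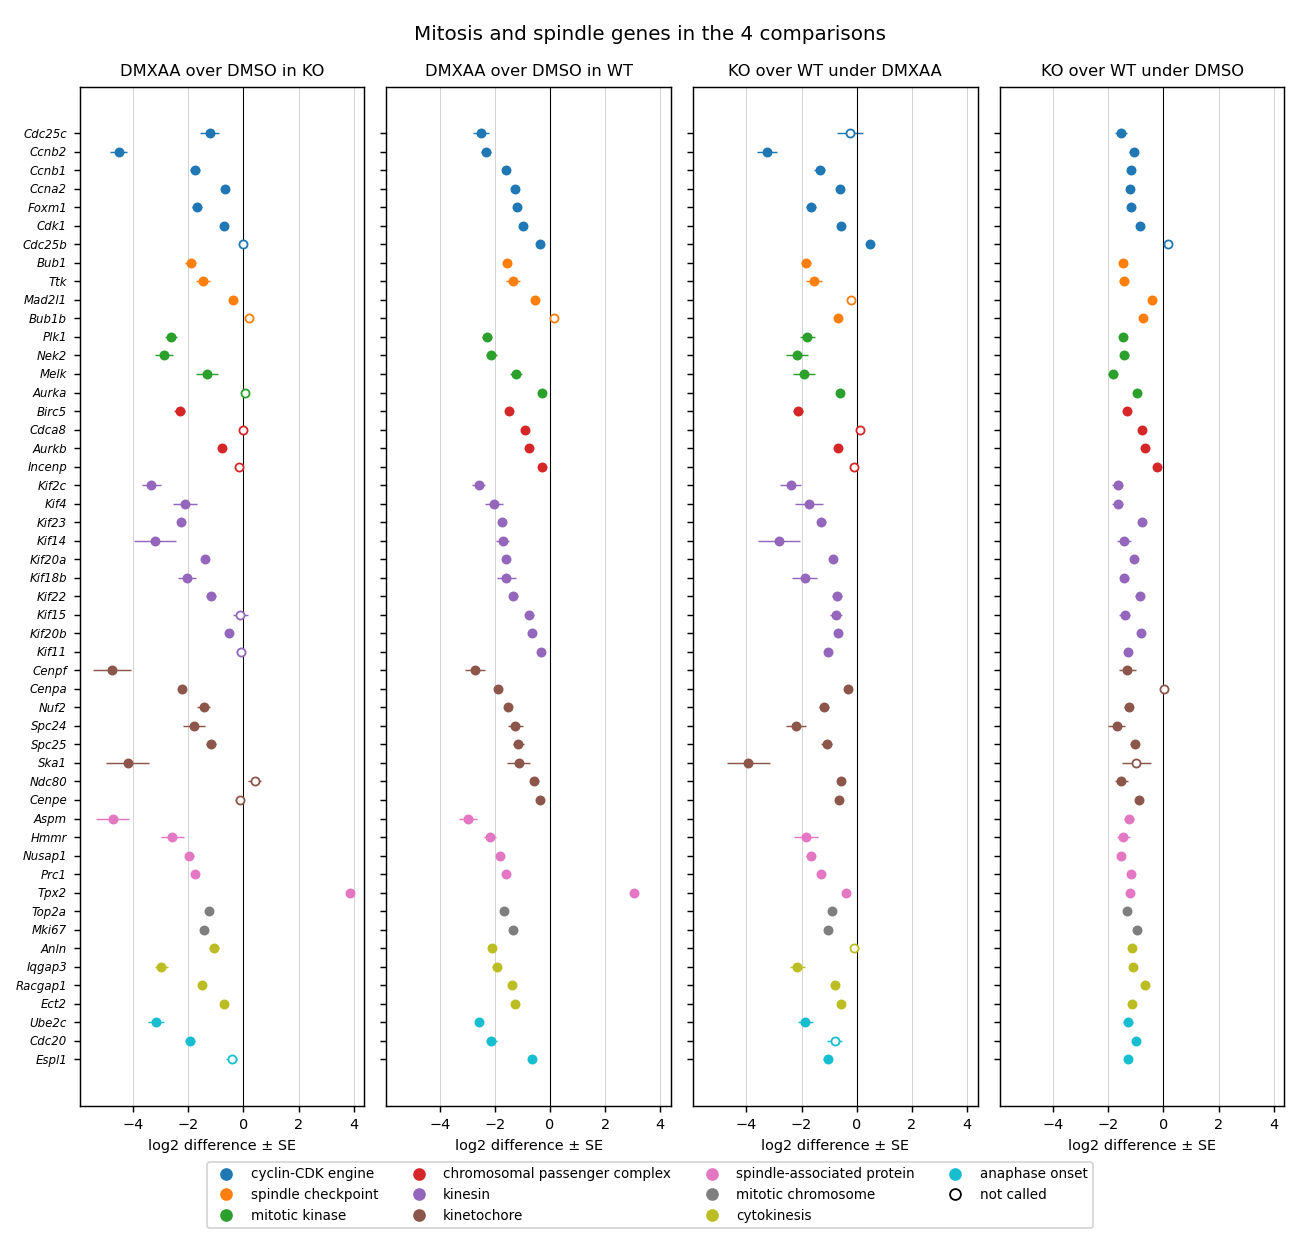
Log2 difference of each of the 51 members, ordered by role, in 4 panels: DMXAA over DMSO in KO, DMXAA over DMSO in WT, KO over WT under DMXAA, and KO over WT under DMSO. Points are limma estimates with bars of 1 SE, filled where called at an adjusted p below 0.05; nearly all lie left of 0, with Tpx2 far to the right in both DMXAA panels.

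The cyclin-CDK engine fell with DMXAA in 6 of 7 members in KO and 7 of 7 in WT. Ccnb2, a B-type cyclin that activates Cdk1, had 10.5, 4.36 and 7.77 normalised counts in DMXAA-treated KO BMMs, against 177, 194 and 185 in DMSO-treated KO BMMs. The treated values were far below the vehicle values, a log2 change of -4.51 ± 0.312 (limma adjusted p = 4.83e-07). In WT it had 70.8, 73.4 and 83.2 normalised counts with DMXAA, against 423, 439 and 302 with DMSO, a change of -2.32 ± 0.168 (limma adjusted p = 1.16e-06). Another B-type cyclin, Ccnb1, changed by -1.76 in KO and -1.61 in WT. Cdk1 itself changed less, by -0.70 and -0.99, as did cyclin A2 (Ccna2), by -0.68 and -1.27. The transcription factor Foxm1, which drives G2 and mitosis genes, changed by -1.67 and -1.18. Of the phosphatases that switch Cdk1 on, Cdc25c changed by -1.22 and -2.50, on at most 91.6 normalised counts in any library. Cdc25b was at -0.03 ± 0.0678 in KO, not called, and fell by 0.35 in WT.

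The mitotic kinases fell in 3 of 4 members in KO and 4 of 4 in WT. Polo-like kinase 1 (Plk1), which acts from spindle assembly to cytokinesis, changed by -2.62 in KO and -2.29 in WT, and the centrosome kinase Nek2 by -2.89 and -2.13. Melk, a kinase of dividing cells, changed by -1.32 and -1.23, its KO call being lost without DMSO replicate 2 (-1.21). Aurora A (Aurka), which matures centrosomes, had 371, 331 and 326 normalised counts in DMXAA-treated KO BMMs, against 319, 367 and 299 in DMSO-treated KO BMMs. Those groups overlapped, at 0.07 ± 0.114 (limma adjusted p = 0.622), a value that turned to -0.32 (adjusted p = 0.0312) when libraries were rescaled to equal totals and to -0.0589 at equal upper quartiles. In WT BMMs it had 477, 500 and 550 with DMXAA, against 641, 683 and 551 with DMSO, a change of -0.29 ± 0.105 (limma adjusted p = 0.0326). That WT call was lost without replicate 1 or 2 of either WT group, where the change was -0.23 to -0.28.

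Rescaling to equal totals shifts the median of all tested genes by DMXAA to -0.39 in KO and -0.32 in WT. On that scale 61.7% of tested genes were called lower and 15.7% higher in KO, and 55.6% lower and 16% higher in WT. Of the members, 47 were called lower in KO and 49 in WT, and the 40 and 49 called before were among them. The members added in KO include Aurka, Cdc25b at -0.41, Cdca8 at -0.40, Incenp at -0.53 and Espl1 at -0.81. At equal upper quartiles 41.6% of tested genes were lower and 26.1% higher in KO, and 38.9% lower and 25% higher in WT, with 42 and 49 members lower.

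The spindle checkpoint, which delays anaphase, fell in 3 of 4 members in each genotype. Mad2l1, the inhibitor of Cdc20 at unattached kinetochores, had 963, 911 and 826 normalised counts in DMXAA-treated KO BMMs, against 1055, 1204 and 1203 in DMSO-treated KO BMMs. In WT the values were 1072, 979 and 995 with DMXAA, against 1452, 1543 and 1503 with DMSO. Neither pair of groups overlapped, but the changes were among the smallest of the members, -0.36 ± 0.0857 in KO and -0.56 ± 0.0686 in WT (limma adjusted p = 0.00388 and 5.41e-05). The checkpoint kinases moved further: Bub1 changed by -1.91 in KO and -1.56 in WT, and Ttk by -1.46 and -1.35. Bub1b, which encodes the checkpoint protein BubR1, had 506, 583 and 604 normalised counts in DMXAA-treated KO BMMs, against 481, 447 and 536 in DMSO-treated KO BMMs. It was not called in either genotype, at 0.21 ± 0.105 in KO and 0.15 ± 0.0983 in WT (limma adjusted p = 0.103 and 0.205).

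The chromosomal passenger complex corrects faulty attachments and later guides cytokinesis. Of its 4 members 2 fell in KO and 4 in WT. Survivin (Birc5) changed by -2.31 in KO and -1.48 in WT, and the catalytic subunit Aurora B (Aurkb) by -0.79 and -0.77. The scaffold Incenp had 3497, 3951 and 3625 normalised counts in DMXAA-treated KO BMMs, against 3960, 4283 and 3988 in DMSO-treated KO BMMs. The groups did not overlap, yet the difference of -0.14 ± 0.0608 was not called (limma adjusted p = 0.0576). It was called at equal totals and equal upper quartiles (-0.53 and -0.27), by edgeR at -0.15, and without DMXAA replicate 2 at -0.19. Borealin (Cdca8) stood at -0.01 ± 0.125 in KO, where it had 486, 407 and 571 normalised counts with DMXAA, against 465, 473 and 524 with DMSO. It fell in WT to 468, 399 and 437 normalised counts with DMXAA, against 996, 789 and 668 with DMSO, a change of -0.89 ± 0.138 (limma adjusted p = 0.000285). The exons of Cdca8 overlap an opposite-strand gene, 9930104L06Rik, which rose by 0.75 in KO and 0.82 in WT; its part in the Cdca8 counts was not tested.

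Kinesins, the microtubule motors, fell in 8 of 10 members in KO and 10 of 10 in WT. Kif20a, a motor of the central spindle needed for cytokinesis, had 420, 499 and 422 normalised counts in DMXAA-treated KO BMMs, against 1116, 1266 and 1145 in DMSO-treated KO BMMs. WT BMMs had 806, 781 and 757 with DMXAA, against 2486, 2425 and 2259 with DMSO. Both pairs were far apart relative to their spread, at -1.40 ± 0.0946 in KO and -1.61 ± 0.0676 in WT (limma adjusted p = 4.11e-07 and 1.79e-08). The microtubule depolymerase Kif2c changed by -3.33 in KO and -2.59 in WT, and Kif14, which acts in cytokinesis, by -3.19 and -1.72. The centralspindlin motor Kif23 changed by -2.26 and -1.75. The spindle-separating motor Kif11 and its helper Kif15 were not called in KO, both at -0.10, and fell in WT by 0.33 and 0.76.

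Kinetochore genes fell in 6 of 8 members in KO and 8 of 8 in WT. Cenpa, the histone H3 variant that marks centromeres, had 1105, 984 and 1075 normalised counts in DMXAA-treated KO BMMs, against 5048, 5226 and 4457 in DMSO-treated KO BMMs. In WT it had 1233, 1435 and 1196 with DMXAA, against 5148, 4956 and 4180 with DMSO. This was a 4.65-fold lower mean in treated KO (log2 change -2.22 ± 0.0749) and a 3.7-fold lower mean in treated WT (-1.88 ± 0.0949; limma adjusted p = 1.71e-09 and 7.55e-08). Cenpf, a large kinetochore and nuclear matrix protein, had 0, 0 and 3.33 normalised counts in DMXAA-treated KO BMMs, against 29.5, 56 and 50.5 in DMSO-treated KO BMMs. In WT the values were 20.2, 17 and 10.4 with DMXAA, against 127, 139 and 68.3 with DMSO. The treated KO libraries thus held almost no Cenpf reads, and the fitted changes were -4.78 ± 0.691 in KO and -2.72 ± 0.349 in WT (limma adjusted p = 0.000135 and 7.73e-05).

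Ska1, which couples kinetochores to microtubule ends, had 2.1, 0 and 0 normalised counts in DMXAA-treated KO BMMs, against 37.6, 44.1 and 10.1 in DMSO-treated KO BMMs, a fitted change of -4.20 ± 0.789 (limma adjusted p = 0.000834). In WT BMMs it had 20.2, 34.1 and 16.2 with DMXAA, against 92.7, 32.2 and 42.6 with DMSO. The WT groups overlapped and the change of -1.14 ± 0.426 was called by a narrow margin (limma adjusted p = 0.04); without replicate 1 of the DMSO-treated WT libraries it was -0.70 and not called, and it also lost its call with no filter on low values and without DMSO replicate 3 or DMXAA replicate 1 or 3. Nuf2, Spc24 and Spc25, subunits of the Ndc80 complex that grips microtubules, changed by -1.18 to -1.79 in KO and by -1.15 to -1.53 in WT. Ndc80, the fourth subunit, was at 0.41 ± 0.231 in KO (limma adjusted p = 0.138) and fell by 0.56 in WT. Cenpe, a kinetochore-bound kinesin, was at -0.13 in KO, not called, and fell by 0.38 in WT.

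Among spindle-associated proteins 4 of 5 fell and Tpx2 rose, in each genotype. Prc1, which bundles the antiparallel microtubules of the central spindle, had 391, 372 and 403 normalised counts in DMXAA-treated KO BMMs, against 1175, 1347 and 1394 in DMSO-treated KO BMMs. WT BMMs had 981, 913 and 926 with DMXAA, against 2834, 3024 and 2638 with DMSO. These are log2 changes of -1.74 ± 0.0883 and -1.59 ± 0.071 (limma adjusted p = 4.08e-08 and 2.94e-08), with wide gaps between the groups. Aspm, which acts at spindle poles and is best known from inherited microcephaly, had 1.05, 3.27 and 0 normalised counts in DMXAA-treated KO BMMs, against 50.1, 67.9 and 46.4 in DMSO-treated KO BMMs (-4.74 ± 0.595; limma adjusted p = 4.75e-05). In WT it had 13.5, 9.58 and 26.6 with DMXAA, against 131, 131 and 117 with DMSO, the lowest value of any member there at -2.97 ± 0.34 (limma adjusted p = 3.41e-05). Nusap1, a microtubule stabiliser near chromosomes, changed by -1.96 in KO and -1.83 in WT, and Hmmr, a spindle pole protein, by -2.57 and -2.18.

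Tpx2 is the protein that activates Aurora A on spindle microtubules, and it was the 1 member that rose. It had 23496, 22962 and 22379 normalised counts in DMXAA-treated KO BMMs, against 1486, 1625 and 1608 in DMSO-treated KO BMMs. In WT BMMs it had 28098, 30545 and 28390 with DMXAA, against 3585, 3623 and 3345 with DMSO. The treated mean was 14.6-fold higher in KO (log2 change 3.87 ± 0.051) and 8.25-fold higher in WT (3.04 ± 0.0533; limma adjusted p = 1.39e-12 and 3.22e-11), the smallest p of any member in both. The gene lies at chr2:152847964-152895321 on the plus strand of mm10, and no listed gene overlaps its exons. Its neighbour Bcl2l1, 16.2 kb away on the other strand, moved little, at 0.28 in KO and 0.13 in WT, the second not called. Ttll9, 67.2 kb away on the same strand, rose by 4.88 in KO on a mean of 15.4 normalised counts and has no test in WT. The deposited counts are per gene and do not show which Tpx2 transcript the reads came from. Aurka, its kinase partner, was not called higher in either genotype.

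Genes of the mitotic chromosome and of cytokinesis fell in all 6 members in both genotypes. Top2a, the topoisomerase that disentangles sister chromatids, had 408, 395 and 403 normalised counts in DMXAA-treated KO BMMs, against 975, 1051 and 859 in DMSO-treated KO BMMs. WT BMMs had 719, 663 and 809 with DMXAA, against 2306, 2376 and 2229 with DMSO. The changes were -1.25 ± 0.0923 in KO and -1.66 ± 0.0827 in WT (limma adjusted p = 8.02e-07 and 7.01e-08), with groups well apart. Mki67, the Ki-67 proliferation antigen that coats mitotic chromosomes, changed by -1.42 and -1.34. Racgap1, the centralspindlin partner of Kif23, had 761, 627 and 547 normalised counts in DMXAA-treated KO BMMs, against 1785, 1897 and 1738 in DMSO-treated KO BMMs (-1.50 ± 0.11; limma adjusted p = 7.95e-07). In WT it had 1166, 1153 and 912 with DMXAA, against 2939, 2928 and 2567 with DMSO (-1.39 ± 0.102; limma adjusted p = 1.3e-06). Ect2, which starts furrowing, changed by -0.71 and -1.26, and Iqgap3, a scaffold of the cell cortex, by -2.97 and -1.94.

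Of the anaphase genes, 2 of 3 fell in KO and 3 of 3 in WT. Ube2c, the ubiquitin-conjugating enzyme of the anaphase-promoting complex, changed by -3.16 in KO and -2.58 in WT, and its activator Cdc20 by -1.93 and -2.13. Separase (Espl1), the protease that cuts cohesin, had 133, 189 and 211 normalised counts in DMXAA-treated KO BMMs, against 190, 240 and 283 in DMSO-treated KO BMMs. Those groups overlapped and the difference of -0.43 ± 0.2 was not called (limma adjusted p = 0.0849), but it was called without DMSO replicate 1 or DMXAA replicate 3, at -0.58 and -0.56, and at equal totals or upper quartiles. It fell in WT to 366, 334 and 356 with DMXAA, against 500, 575 and 588 with DMSO (-0.65 ± 0.0989; limma adjusted p = 0.000253).

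Markers of other cells moved with DMXAA as well. The 8 bone marrow progenitor markers, Cd34 the most abundant, summed to 3.1 to 3.41 RPM in DMXAA-treated KO libraries, against 10.9 to 11.9 in DMSO-treated KO libraries. In WT they summed to 1.31 to 1.48 with DMXAA, against 5.31 to 6.05 with DMSO. Prtn3, Ctsg and Myb were at or near 0 wherever listed. Of 4 tested progenitor markers 3 were called lower and 1 higher in KO, and 2 lower and 0 higher in WT. Cebpe had 16, 23 and 25 reads in DMXAA-treated KO libraries, against 6, 11 and 14 in DMSO-treated KO libraries. The 6 monocyte markers summed to 266 to 344 RPM in DMXAA-treated KO and 26.2 to 28.2 in DMSO-treated KO libraries, against 416 to 436 and 19.9 to 28.0 in the WT libraries. In each genotype 5 of them were called higher with DMXAA and 1 lower. The lower marker, F13a1, had 0, 2 and 0 reads in DMXAA-treated KO libraries, against 1250, 1221 and 973 in DMSO-treated KO libraries. In WT it had 4, 12 and 0 reads with DMXAA, against 645, 784 and 539 with DMSO. The 8 macrophage markers summed to 9396 to 9485 in DMXAA-treated KO and 16736 to 17544 in DMSO-treated KO libraries, and to 11478 to 11719 and 20594 to 21044 in WT. With DMXAA 6 of them were called lower and 2 higher in KO, and 5 lower and 2 higher in WT. Fcgr1 had 112636, 118319 and 112363 reads in DMXAA-treated KO libraries, against 9622, 9791 and 9010 in DMSO-treated KO libraries. In WT it had 100305, 108187 and 95121 reads with DMXAA, against 13525, 14637 and 10524 with DMSO. The part of these shifts in the members' changes was not tested.

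KO BMMs held less of most members than WT BMMs under either treatment. Under DMXAA 42 of 49 tested members were lower in KO, 1 was higher and 6 were not called, where 21.5% of 12499 tested genes were called, 10.8% lower and 10.7% higher. Under DMSO 48 of 51 were lower, none was higher and 3 were not called, where 16.6% of 12814 tested genes were called, 9.58% lower and 7.04% higher. For the count of 0 higher, edgeR also gave 0 and DESeq2 gave 1 (Cdc25b); 1 member above 0, the same gene, had an unadjusted p below 0.05 in limma. The median difference of the members was -1.05 under DMXAA and -1.19 under DMSO, with all-gene medians of 0.00 and 0.01. At equal totals 14.4% of tested genes were lower and 7.51% higher under DMXAA, with 44 members lower. Differences of at least 1 on the log2 scale were called in 26 and 34 members, against 1.88% and 2.39% of all tested genes. The KO libraries lay wholly below the WT libraries for 43 members under DMXAA and 48 under DMSO, against 18.5% and 17.6% of tested genes. The 2 treatments use separate libraries, and 40 members were called lower in KO under both. For all tested genes the share lower under both treatments was not computed.

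Levels in these genotype comparisons come from tables scaled within 1 treatment, so they differ slightly from those given for the same libraries above. In the cyclin-CDK engine, Ccnb2 had 9.43, 3.89 and 6.95 normalised counts in DMXAA-treated KO BMMs, against 65.5, 67.5 and 76.7 in DMXAA-treated WT BMMs. Under DMSO it had 193, 212 and 201 in KO, against 474, 492 and 338 in WT. The KO libraries were lower without overlap in both, at -3.26 ± 0.371 under DMXAA and -1.08 ± 0.148 under DMSO (limma adjusted p = 0.000158 and 0.000531). Ccnb1 stood at -1.33 and -1.19, Foxm1 at -1.65 and -1.16, Cdk1 at -0.56 and -0.85, and Ccna2 at -0.61 and -1.20.

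Cdc25b was the 1 member higher in KO. It had 4710, 4258 and 4002 normalised counts in DMXAA-treated KO BMMs, against 3072, 3158 and 3040 in DMXAA-treated WT BMMs, a 1.4-fold higher mean (0.48 ± 0.0616; limma adjusted p = 0.00033). Among DMSO libraries it had 5434, 5033 and 5573 in KO, against 4707, 4853 and 4771 in WT. Those groups did not overlap either, but 0.16 ± 0.0583 was not called (limma adjusted p = 0.0867), though it was at equal totals and by DESeq2, at 0.19 and 0.16. Spef1 lies on the opposite strand with exons that overlap those of Cdc25b, and it was also higher in KO under DMXAA, at 1.21, on a mean of 146 normalised counts. The library kit keeps strand, but the strand setting of the counting is not given in the sources used here, and the part of Spef1 reads in Cdc25b was not tested.

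Tpx2, the gene that rose with DMXAA, was lower in KO like most members. It had 21060, 20524 and 20010 normalised counts in DMXAA-treated KO BMMs, against 25980, 28074 and 26166 in DMXAA-treated WT BMMs (-0.38 ± 0.0415; limma adjusted p = 0.000115). With DMSO it had 1617, 1775 and 1746 in KO, against 4016, 4064 and 3743 in WT (-1.20 ± 0.0664; limma adjusted p = 1.82e-06). Prc1 had 351, 333 and 360 normalised counts in DMXAA-treated KO BMMs, against 907, 839 and 853 in DMXAA-treated WT BMMs. Under DMSO it had 1279, 1471 and 1514 in KO, against 3175, 3392 and 2952 in WT. Both differences were large against the spread, at -1.31 ± 0.08 and -1.16 ± 0.0826 (limma adjusted p = 2.8e-06 and 8.91e-06). Nusap1 stood at -1.67 and -1.55, and Hmmr at -1.84 and -1.45.

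All 4 mitotic kinases were lower in KO under both treatments. Melk had 33, 10.7 and 35.7 normalised counts in DMXAA-treated KO BMMs, against 73.8, 90 and 115 in DMXAA-treated WT BMMs (-1.92 ± 0.408; limma adjusted p = 0.00715). Among DMSO libraries it had 70.1, 84.3 and 64.7 in KO, against 297, 294 and 207 in WT, the lowest value of any member there at -1.84 ± 0.184 (limma adjusted p = 6.87e-05). Aurka, not called with DMXAA in KO, stood at -0.61 and -0.97, and Plk1 at -1.79 and -1.46.

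All 4 checkpoint genes were lower in KO under DMSO and 3 under DMXAA. Bub1 had 96.2, 66.2 and 79.4 normalised counts in DMXAA-treated KO BMMs, against 314, 311 and 243 in DMXAA-treated WT BMMs (-1.84 ± 0.173; limma adjusted p = 4.85e-05). With DMSO it had 351, 462 and 309 in KO, against 1063, 1075 and 953 in WT (-1.48 ± 0.135; limma adjusted p = 3.66e-05). Bub1b, not called with DMXAA in either genotype, was lower in KO at -0.68 and -0.74. Mad2l1 was at -0.22 ± 0.0801 under DMXAA, not called (limma adjusted p = 0.0798; -0.26 and called at equal totals), and lower by 0.42 under DMSO.

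In the chromosomal passenger complex, Birc5 had 40.5, 51.6 and 37.7 normalised counts in DMXAA-treated KO BMMs, against 172, 186 and 220 in DMXAA-treated WT BMMs (-2.13 ± 0.188; limma adjusted p = 3.18e-05). Under DMSO it had 260, 317 and 219 in KO, against 760, 579 and 629 in WT (-1.31 ± 0.148; limma adjusted p = 0.000141). Incenp and Cdca8 were not called under DMXAA, at -0.11 and 0.11, and were lower in KO under DMSO by 0.24 and 0.77. The Cdca8 value under DMXAA was -0.00557 without KO replicate 3, and the Incenp call under DMSO was lost without replicate 1 or 3 of either genotype.

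All 10 kinesins were lower in KO under both treatments, with medians of -1.17 under DMXAA and -1.34 under DMSO. Kif20a had 376, 446 and 377 normalised counts in DMXAA-treated KO BMMs, against 745, 718 and 698 in DMXAA-treated WT BMMs (-0.85 ± 0.0916; limma adjusted p = 0.000104). Among DMSO libraries it had 1215, 1383 and 1243 in KO, against 2785, 2720 and 2528 in WT (-1.07 ± 0.0749; limma adjusted p = 8e-06). Kif11, not called with DMXAA in KO, was lower in KO at -1.04 and -1.27. Kif15 was lower at -0.75 and -1.40; the authors' deposited table gave it an adjusted p of 0.0516 under DMXAA.

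Kinetochore genes were lower in KO in 7 of 7 tested under DMXAA and 6 of 8 under DMSO. Cenpa had 991, 880 and 961 normalised counts in DMXAA-treated KO BMMs, against 1140, 1319 and 1102 in DMXAA-treated WT BMMs (-0.33 ± 0.0836; limma adjusted p = 0.0181). With DMSO it had 5493, 5707 and 4841 in KO, against 5766, 5560 and 4677 in WT, which overlapped fully (0.01 ± 0.0873; limma adjusted p = 0.975). Its call under DMXAA was lost without replicate 2 of either genotype, at -0.28 and -0.25. Ska1 had 1.89, 0 and 0 normalised counts in DMXAA-treated KO BMMs, against 18.7, 31.3 and 14.9 in DMXAA-treated WT BMMs (-3.93 ± 0.764; limma adjusted p = 0.00441). Under DMSO it had 40.9, 48.2 and 11 in KO, against 104, 36.2 and 47.6 in WT, and was not called (-0.98 ± 0.53; limma adjusted p = 0.25). Nuf2, Spc24, Spc25 and Ndc80 stood at -0.55 to -2.21 under DMXAA and at -1.05 to -1.69 under DMSO, all called.

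Several of these members were at the edge of detection in DMXAA-treated KO BMMs. Ska1 had 2 reads over the 3 DMXAA-treated KO libraries, against 64 over the 3 DMXAA-treated WT libraries, a level 34.9-fold lower in KO (95% counting interval 9.29 to 295). Cenpf had 3 reads against 43 (15.7-fold lower, interval 5.01 to 78.9), and Aspm 4 reads against 44 (12-fold lower, interval 4.37 to 46.0). Both Cenpf and Aspm fell under the mean of 10 normalised counts required for the test under DMXAA, so neither has a call there. Cenpf had 0, 0 and 2.98 normalised counts in DMXAA-treated KO BMMs, against 18.7, 15.7 and 9.59 in DMXAA-treated WT BMMs. Aspm had 0.943, 2.92 and 0 in KO under DMXAA, against 12.5, 8.8 and 24.5 in WT. Under DMSO, where both were tested, Cenpf was at 32.1, 61.2 and 54.8 in KO, against 143, 156 and 76.4 in WT (-1.31 ± 0.312; limma adjusted p = 0.0149), a call that was lost without KO replicate 1 or WT replicate 1 or 2. Aspm was at -1.25 ± 0.195 (limma adjusted p = 0.00124). The intervals cover counting error only and treat each read as independent. They would be too narrow if both reads of a pair were counted, which was not tested. Low counts were often even: in DMXAA-treated WT libraries Ska1 had 18, 32 and 14 reads, and Cenpf 18, 16 and 9.

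Mitotic chromosome, cytokinesis and anaphase genes were lower in KO in 7 of 9 members under DMXAA and in 9 of 9 under DMSO. Top2a had 366, 353 and 360 normalised counts in DMXAA-treated KO BMMs, against 665, 609 and 746 in DMXAA-treated WT BMMs (-0.90 ± 0.0935; limma adjusted p = 8.54e-05). Among DMSO libraries it had 1061, 1147 and 933 in KO, against 2583, 2665 and 2494 in WT (-1.31 ± 0.0836; limma adjusted p = 4.37e-06). Racgap1 stood at -0.78 ± 0.13 and -0.68 ± 0.0738, and Espl1 at -1.05 ± 0.164 and -1.28 ± 0.143. Anillin (Anln), which organises the contractile ring, had 131, 123 and 101 normalised counts in DMXAA-treated KO BMMs, against 134, 125 and 115 in DMXAA-treated WT BMMs. Those overlapped (-0.08 ± 0.158; limma adjusted p = 0.773), whereas under DMSO it had 350, 322 and 241 in KO, against 689, 676 and 611 in WT (-1.13 ± 0.136; limma adjusted p = 0.000223). Cdc20 was at -0.80 under DMXAA, not called, and lower in KO at -1.0 under DMSO.

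Markers of several other cell types differed between the genotypes too. The 8 neutrophil markers summed to 0.774 to 0.834 RPM in DMXAA-treated KO libraries, against 2.72 to 3.06 in DMXAA-treated WT libraries, with Mpo and Elane not listed there. Under DMSO they summed to 0.744 to 1.28 in KO, against 5.47 to 7.75 in WT, with Ly6g at 0 in both, Camp at 0 in KO and Elane not listed. The sum of the 8 progenitor markers, most of it Cd34, was 3.1 to 3.41 RPM in KO against 1.31 to 1.48 in WT under DMXAA, and 10.9 to 11.9 in KO against 5.31 to 6.05 in WT under DMSO; 1 of 4 tested markers was called higher in KO under DMSO. The 6 stromal markers summed to 0.947 to 5.41 RPM in DMSO-treated KO libraries, against 0.381 to 0.830 in DMSO-treated WT libraries, with 3 of 4 tested called higher in KO. Among the DMSO-treated KO libraries Col1a1 had 10 reads in replicate 1, 199 in replicate 2 and 200 in replicate 3. Without any 1 of the DMSO libraries, 46 to 48 members were called lower in KO. This does not address the stromal reads, since a DMSO-treated KO library with high Col1a1 always stayed in the fit. T and NK cell markers summed to at most 0.292 RPM in any library. The part of these markers in the members' differences was not tested.

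Whether DMXAA changed the members by a different amount in the 2 genotypes was tested over all 12 libraries, as the response in KO minus that in WT. Of 51 members 44 were not called, 4 were higher and 3 lower, and the median of the members was -0.08. Across 12729 tested genes 8.6% were called, 5.37% higher and 3.24% lower, so the members' share of 7 in 51 is not far from the background. The called ones were spread over roles. More negative in KO were Ccnb2 at -2.17 ± 0.346 (limma adjusted p = 0.00125), Iqgap3 at -1.03 ± 0.275 (0.0317) and Birc5 at -0.82 ± 0.239 (0.0468). More positive in KO were Tpx2 at 0.82 ± 0.0725 (limma adjusted p = 1.27e-05), Anln at 1.05 ± 0.206 (0.00558), Cdca8 at 0.88 ± 0.201 (0.0137) and Cdc25b at 0.32 ± 0.0842 (0.0295). The Birc5 call was lost without replicate 1 or 3 of DMXAA-treated KO, 2 or 3 of DMXAA-treated WT, 1 or 2 of DMSO-treated KO, or 2 or 3 of DMSO-treated WT, with values of -0.69 to -0.85, and with a pseudocount of 8 or no filter. The Cdc25b call was lost without replicate 1 or 2 of DMXAA-treated KO, 1 or 3 of DMXAA-treated WT, 1 or 2 of DMSO-treated KO, or 2 or 3 of DMSO-treated WT, with values of 0.26 to 0.33, and at equal totals (0.25). Ska1 at -2.95 ± 0.878 and Ndc80 at 0.98 ± 0.302 were not called (limma adjusted p = 0.0535 and 0.0634). Ska1, on few reads, was called with a pseudocount of 0.5 (-3.65), by DESeq2 (-4.17), at equal totals (-2.99), and without DMXAA-treated KO replicate 1 (-3.46), DMSO-treated KO replicate 3 (-3.59) or DMSO-treated WT replicate 1 (-3.38). At equal totals 5.88% of tested genes were called lower and 3.79% higher, with 4 members lower and 3 higher.

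**Figure D3:**
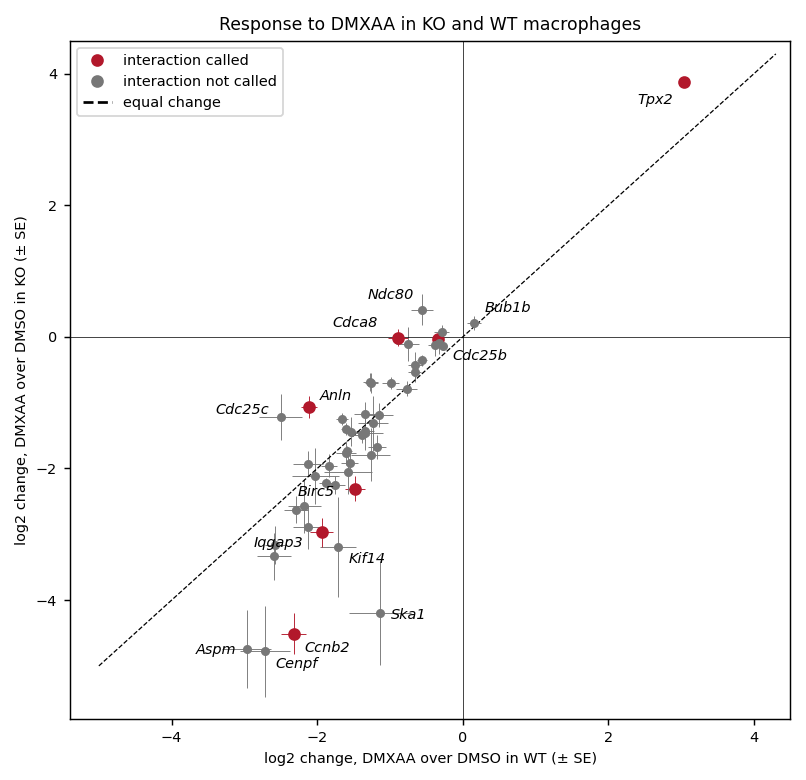
Log2 response to DMXAA of the 51 members in WT (x axis) and in KO (y axis), with the diagonal of equal response and in red the 7 members whose responses differed by the interaction test. Most members lie at the lower left near the diagonal; Ccnb2, Iqgap3 and Birc5 lie below it, and Anln, Cdca8, Cdc25b and Tpx2 above it.

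On a scale per length of exon, the members differed widely in abundance. In DMSO-treated WT BMMs Cdc25b was the most abundant, at 14.6 ± 0.321 reads per kb of exon per 1000000 reads (SD, n = 3), followed by Incenp at 13.8 ± 0.753, Cenpa at 10.3 ± 1.11 and Tpx2 at 9.57 ± 0.434. The first pair differed by about their spread. Kif20a came next at 7.01 ± 0.341, and the least abundant were Aspm at 0.138 ± 0.00893, Kif14 at 0.105 ± 0.0147 and Cenpf at 0.092 ± 0.0315. In DMXAA-treated KO BMMs Tpx2 stood first, at 47.2 ± 1.45, with Cdc25b at 12.5 ± 1.1, Incenp at 8.19 ± 0.478 and Cenpa at 1.73 ± 0.112. Ccnb2, 10th of the 51 in DMSO-treated WT BMMs at 3.22 ± 0.628, was 40th in DMXAA-treated KO BMMs at 0.0475 ± 0.0197.

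Other genes of the mitotic machinery were described through lists chosen with earlier results of these data known. The lists were not tested as sets. Of all tested genes DMXAA called 32.9% lower and 33.7% higher in KO, and 31.1% lower and 31.7% higher in WT. With DMXAA, the 31 other kinetochore genes fell in 13 and rose in 5 in KO, with a median of -0.17. In WT they fell in 16 and rose in 3, with a median of -0.33. Spdl1, which recruits dynein to kinetochores, rose by 2.08 and 1.90, and Kntc1, its partner in the same pathway, changed by -2.61 and -1.96. Of centrosome and other spindle genes, 13 of 26 tested fell and 7 rose in KO, and 17 of 28 fell and 4 rose in WT. The centriole protein Sass6 rose by 2.22 and 1.51. Among 8 condensin genes 5 fell and 2 rose in KO and 6 fell and 1 rose in WT; Ncapg2 rose by 1.27 and 1.70 while Ncaph changed by -2.09 and -1.47. Securin (Pttg1), the inhibitor of separase, rose by 1.31 and 1.88, although 7 of 15 cohesin genes fell in KO and 9 in WT. The 19 genes of the anaphase-promoting complex and its regulators were mixed, with 5 lower and 6 higher in KO and 6 lower and 4 higher in WT. In that list Anapc5 rose by 1.27 and 1.15.

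DNA replication and S phase genes fell in 15 and rose in 10 of 33 with DMXAA in KO, with a median of -0.17. In WT they fell in 20 and rose in 7, with a median of -0.42. Among all tested genes 32.9% were lower and 33.7% higher in KO, and 31.1% lower and 31.7% higher in WT. The replication clamp Pcna rose by 1.0 in KO, whereas no gene of this list changed by more than 0.655 upward in WT. In this list 9 of 33 genes had a more positive response in KO by the limma interaction test, against 5.37% of all tested genes. Among them was Pcna at 1.11 ± 0.0774. KO BMMs held less of 25 and more of 2 of these 33 genes than WT BMMs under DMXAA, and less of 30 under DMSO. The shares of all tested genes lower in KO were 10.8% under DMXAA and 9.58% under DMSO. The helicase subunit Mcm5 was lower in KO at -0.93 and -1.53, and Uhrf1, which maintains DNA methylation, at -1.83 and -1.90. The 10 G1 cyclin and CDK genes were split with DMXAA. Called lower were 4 in KO and 5 in WT, and called higher were 5 and 3. Among them the growth factor target Myc changed by -4.0 with DMXAA in KO and -4.41 in WT. Cyclin D2 (Ccnd2) rose by 2.97 and 2.51. Of CDK inhibitors and mitotic brakes, 7 of 12 tested were called lower with DMXAA in KO and 2 higher (median -0.26). WT had 5 of 14 lower and 4 higher (median -0.41). Among these, the CDK inhibitor Cdkn1a (p21) rose by 0.64 in KO and 0.99 in WT, and Gadd45a changed by -1.84 and -1.35. For DREAM, MuvB and E2F genes, DMXAA gave 8 of 18 called lower and 5 higher in KO. The WT counts were 9 lower and 3 higher. Rbl1 (p107) of this list rose by 1.23 in KO and 1.24 in WT, and Tfdp2 changed by -2.23 and -1.62.

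**Figure D4:**
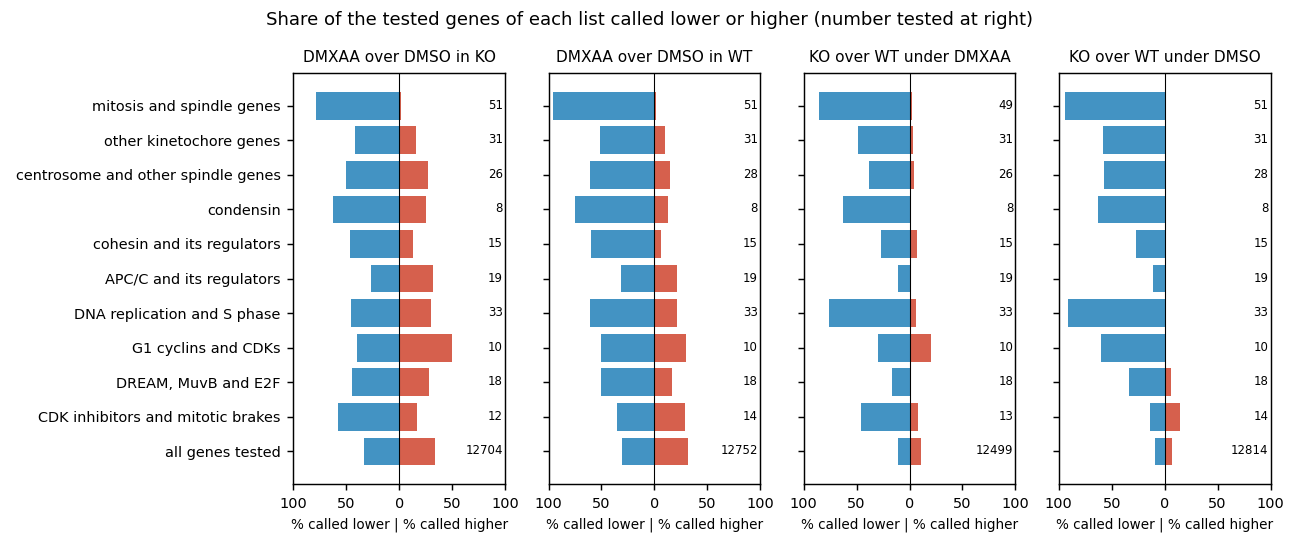
Percent of tested genes called lower (left of 0) and higher (right of 0) in each gene list and in the 51 members, for the 4 comparisons, beside all tested genes. The members have the longest bars to the left in each comparison, 40 of 51, 49 of 51, 42 of 49 and 48 of 51 lower, and the S phase list comes nearest to them in the genotype comparisons.

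With KO over WT, the 31 other kinetochore genes were lower in KO in 15 under DMXAA and 18 under DMSO. Centrosome and other spindle genes were lower in 10 of 26 and 16 of 28, and condensin in 5 of 8 under both. Of all tested genes 10.8% were lower in KO under DMXAA and 9.58% under DMSO. The anaphase-promoting complex list was lower in 2 of 19 under both treatments, with a median of 0.03 under DMXAA and -0.01 under DMSO. The DREAM, MuvB and E2F list was lower in 3 of 18 and 6 of 18, with Mybl2 (B-Myb) at -2.23 under DMSO and E2f7 at -2.04 under DMXAA.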

How the data were processed

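RNA-seq of 12 BMM libraries, 3 in each of 4 groups taken from the sample titles, was analysed from the deposited tables. Per the submitters' processing notes, the authors used HISAT2, featureCounts and mm10; versions and counting settings are not given in the sources used here. Per the labels, libraries were strand-specific mRNA libraries. The authors deposited 4 tables of normalised counts, a signal that was scaled separately for every table of 6 libraries. They also deposited comparison tables that hold log2 fold changes, a test score per gene, and each p-value before and after adjustment. Of the deposited values 100% gave whole reads when divided by 1 step per library (tolerance 0.01), and these reads serve depths, RPM and the count-based alternatives.

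The main test was limma 3.58.1 (lmFit, eBayes with trend, two-sided) on log2 of the normalised count plus 1, for genes with a mean of at least 10 in the table. P-values were adjusted over all genes tested (Benjamini-Hochberg), and genes were called below 0.05. For scarce genes such a log2 value can be smaller or larger in size than the authors' deposited fold change. With DMXAA in KO, Cenpf was at -4.78 against -5.38 from the authors, and Kif14 at -3.19 against -3.03. The interaction used all 12 libraries. Pseudocounts of 0.5 and 8, no filter, 2 rescalings, edgeR 4.0.16, DESeq2 1.42.0, a replicate block and each replicate left out were the alternatives. The fits were tested on simulated data. R 4.3.3 and Python 3.11.15 were used; positions are GENCODE vM21 on mm10, promoters RefSeq on GRCm38.p6 (mm10).

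The rule for the members uses no measured value, but the members and lists were put forward with earlier results of these data known. Full values are given for the 3 members with the smallest p, the highest, the lowest and any against the majority in each comparison, 5 for the interaction, the most abundant of each role and those failing the filter. Other members have a log2 value; Bub1b and some genes of other lists were named in full after their values were seen. Recovered reads did not differ between the 2 tables holding a library, and replicates were not duplicates. No removal of other cells was made.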

Additional observations from a re-analysis of the deposited data

Results flagged for a closer look

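For 7 members the response to DMXAA differed between KO and WT by the limma interaction test (response in KO minus response in WT, log2 scale, n = 3 libraries a group). Across 12729 tested genes 8.6% were called by that test, so the members' share is not far from the background. The difference was -2.17 for Ccnb2, where the change with DMXAA was -4.51 in KO and -2.32 in WT. It was -1.03 for Iqgap3, at -2.97 in KO and -1.94 in WT, and -0.825 for Birc5, at -2.31 and -1.48. It was 0.821 for Tpx2, which rose by 3.87 in KO and 3.04 in WT. For Anln it was 1.05, at -1.06 in KO and -2.11 in WT. For Cdca8 it was 0.883, at -0.01 in KO and -0.89 in WT. For Cdc25b it was 0.32, at -0.03 in KO and -0.35 in WT. The Birc5 and Cdc25b calls were each lost in several fits with 1 replicate left out. That of Birc5 was also lost with a pseudocount of 8 or no filter, and that of Cdc25b at equal totals. Ccnb2 had 21 reads over the 3 DMXAA-treated KO libraries, against 204 over the 3 DMXAA-treated WT libraries.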

How the results depend on the processing

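Across the pseudocounts, filter, rescalings, edgeR, DESeq2 and replicates left out, 39 to 47 members were called lower with DMXAA in KO, 47 to 49 in WT, 37 to 44 in KO against WT under DMXAA and 46 to 48 under DMSO. Members called higher with DMXAA in KO were 1 to 2 with a replicate left out (2 without KO DMXAA replicate 1); in KO against WT under DMSO 1 was called higher at equal totals and with DESeq2. In the interaction 1 was called lower with a pseudocount of 8 and 8 higher with DESeq2, and leaving out replicates gave 1 to 4 lower and 3 to 7 higher. Values of members not called turned sign: with DMXAA in KO, Aurka at -0.32 (equal totals) and -0.0589 (equal upper quartiles), Cdca8 at 0.00225 (DESeq2) and -0.13 to 0.11 with a replicate left out, and Cdc25b at -0.0874 to 0.0283 with one left out. In KO against WT, leaving out replicates gave Anln -0.16 to 0.0254 and Cdca8 -0.00557 to 0.24 under DMXAA, and Cenpa -0.0861 to 0.0757 under DMSO. In the interaction, Melk was at 0.12 (pseudocount 8), 0.0586 (edgeR), 0.0569 (DESeq2) and -0.37 to 0.45 with a replicate left out, and Racgap1 at -0.23 to 0.00467. The cause was not tested.

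Deviations of same-numbered replicates had correlations of -0.0358 to 0.0656, against -0.0743 to 0.0616 for other pairs of replicates. With 3 libraries a group these values cannot decide whether samples were paired. The numbers, also used for the replicate block, are those of the sample titles. Library names carry other numerals, II to IV for DMSO and I to III for DMXAA, and matching by these was not tested. With the replicate block 41, 47, 41 and 48 members were called lower in the order above, and 6 were higher and 2 lower in the interaction; Espl1 in KO became called at -0.43 (adjusted p = 0.0188), and Ska1 and Aurka in WT lost their calls at -1.14 and -0.29. In the interaction Ska1 became called at -2.95 (adjusted p = 0.0354) and Birc5 lost its call (0.0683). Depth limits Ska1, Cenpf and Aspm under DMXAA.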
